A study of Mus musculus with 30 samples.

Results

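The integrin and laminin genes of the mouse uterus were described across 10 groups of arrays. They were the genes whose symbol starts with Itga or Itgb and a number, the subunits Itgae, Itgal, Itgav and Itgax, and the laminin chains Lama, Lamb and Lamc. Itgam was left out of the set. The choice by name gave 37 genes on 38 probe sets, of 30142 genes tested and 72688 probe sets on the array. They comprised 15 integrin alpha subunits, 9 beta subunits, 3 proteins named for binding a beta subunit (Itgb1bp1, Itgb1bp2 and Itgb3bp) and 10 laminin chains. The probe set of Itga1 also carried another symbol, and it was not analysed here.

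The uteri came from prepubertal female mice aged 21 days, either wild type (WT) or lacking estrogen receptor alpha (ERa KO, genotype Ex3aERKO). The vehicle groups of both genotypes received 100 ul of saline and were collected after 24 h. Estradiol (E2), the main ovarian estrogen, was given as 250 ng in saline, with collection after 2 h or 24 h. Insulin-like growth factor 1 (IGF1), a growth factor made in the uterine stroma under estrogen, was given as 50 ug in PBS. IGF1 was injected once for the 2 h groups and 3 times, the last at 16 h, for the 24 h groups. Each of the 10 groups had 3 arrays, and this number limits the precision. Whether the 3 were separate animals is not stated in the labels, and the p-values then cover no more than the spread among these samples. Vehicle was collected only at 24 h, so a difference between 2 h and vehicle also holds the time since injection, and saline served as the control for IGF1 in PBS. The E2 and IGF1 comparisons within a genotype share the same vehicle arrays.

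Integrins are cell-surface receptors made of an alpha and a beta subunit that bind the extracellular matrix outside the cell and the actin or keratin cytoskeleton within it. Laminins are trimers of an alpha, a beta and a gamma chain and form the sheet-like core of basement membranes, on which uterine epithelium, muscle fibres and vessels rest. The alpha subunit largely sets the ligand: collagen, laminin, or proteins with an arginine-glycine-aspartate (RGD) motif such as fibronectin and vitronectin. In the uterus the expression of several integrins follows ovarian hormones, and integrins of the luminal epithelium have been studied in embryo attachment.

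Values were the log2 array signals that the submitters deposited, and a difference of 1 on this scale is 2-fold. Signals of different genes come from different probes and were not set against each other. A floor was taken on each array as the 95th percentile of 1225 olfactory receptor genes, and it lay between 5.69 and 6.57. Differences were tested with limma over all 30142 genes, and a gene was called at a Benjamini-Hochberg adjusted p under 0.05. Esr1, the gene of estrogen receptor alpha, stood at 11.73, 12.43 and 12.73 on the WT vehicle arrays and at 10.41, 10.29 and 10.08 on the KO vehicle arrays. The difference was -2.04 ± 0.19 (SE; limma adjusted p = 2.17e-06), although the probe set may lie partly outside the deleted exon. The array labelled WT vehicle replicate 1 stood apart. Its Xist signal, a transcript of the inactive X chromosome in female cells, was 10.16 against 17.01 to 18.12 on the other 29 arrays, and its limma array weight was 0.166. KO E2 24 h replicate 2 had the next lowest weight, 0.259, and the highest floor. Calls lost without WT vehicle replicate 1 are stated as such beside their values. All 5 uterine identity markers were above the floor on some arrays, and the ovarian markers Amh and Fshr were under it on all 30.

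RefSeq promoter windows of 24 of the 37 genes were searched, 27 windows in all on GRCm38.p6. Each window ran from 250 bases before the transcript start to 50 bases from it on. Lama3 was not among the 24 genes, and its promoter was not searched. The 250 bases before the start are shown for 5 genes with some of the largest changes below, read 5′ to 3′ on the gene's own strand. Lamb1 lies at chr12:31265043-31265292 on the plus strand, and the others lie on the minus strand. Their positions are chr12:119238277-119238526 for Itgb8, chr15:103366792-103367041 for Itga5, chr13:114932101-114932350 for Itga2, and chr11:95076715-95076964 and chr11:95069199-95069448 for the upstream and downstream starts of Itga3. Capitals mark matches on either strand to an estrogen response element (GGTCA, 3 bases of any kind, then TGACC), its GGTCA arm, an AP-1 site (TGANTCA), a serum response element and a GC box (GGGCGG, the motif of Sp1 factors). A full estrogen response element would also hold the GGTCA arm, so those searches overlap.
Lamb1: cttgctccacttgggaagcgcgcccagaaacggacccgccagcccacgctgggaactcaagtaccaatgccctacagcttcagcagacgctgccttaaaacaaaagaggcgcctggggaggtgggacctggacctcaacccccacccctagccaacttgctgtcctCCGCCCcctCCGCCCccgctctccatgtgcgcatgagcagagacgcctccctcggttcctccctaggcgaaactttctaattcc
Itgb8: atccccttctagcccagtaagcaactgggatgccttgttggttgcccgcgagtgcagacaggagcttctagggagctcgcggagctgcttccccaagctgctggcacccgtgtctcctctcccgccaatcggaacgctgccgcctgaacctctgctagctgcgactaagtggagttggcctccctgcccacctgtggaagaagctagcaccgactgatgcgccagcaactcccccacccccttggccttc
Itga5: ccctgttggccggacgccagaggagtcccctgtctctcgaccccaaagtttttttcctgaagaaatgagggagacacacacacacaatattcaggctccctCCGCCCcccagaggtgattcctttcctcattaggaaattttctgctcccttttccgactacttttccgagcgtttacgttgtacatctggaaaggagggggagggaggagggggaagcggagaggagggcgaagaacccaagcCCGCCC
Itga2: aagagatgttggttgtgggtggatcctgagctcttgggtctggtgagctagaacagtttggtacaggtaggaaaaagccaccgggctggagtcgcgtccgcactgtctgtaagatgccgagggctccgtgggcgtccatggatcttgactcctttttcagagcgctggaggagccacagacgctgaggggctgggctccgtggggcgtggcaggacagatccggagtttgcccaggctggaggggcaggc
Itga3 upstream: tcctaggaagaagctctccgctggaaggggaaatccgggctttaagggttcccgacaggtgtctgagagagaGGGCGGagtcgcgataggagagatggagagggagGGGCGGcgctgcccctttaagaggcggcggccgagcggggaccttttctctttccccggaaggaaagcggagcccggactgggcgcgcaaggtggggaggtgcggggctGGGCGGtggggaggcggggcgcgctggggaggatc
Itga3 downstream: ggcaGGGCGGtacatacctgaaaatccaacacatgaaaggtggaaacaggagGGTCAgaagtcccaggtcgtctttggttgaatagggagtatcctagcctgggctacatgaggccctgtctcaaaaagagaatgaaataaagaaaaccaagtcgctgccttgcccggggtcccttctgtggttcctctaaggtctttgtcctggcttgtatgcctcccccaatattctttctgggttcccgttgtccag

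No window of the 27 held the full estrogen response element, which 0.07% of all 32851 windows in the table held. The GGTCA arm was in 8 of the 27 windows and in 40.5% of all windows. An AP-1 site was in 3 of them and in 7.81% of all windows, and a serum response element was in 2 and in 1.63%. The GC box was in 11 of the 27 windows and in 35.7% of all. Also searched, but not marked above, were the E-box (CANNTG), the CCAAT box and the TATA box (TATAAA). The E-box was in 23 of the 27 windows and in 72.3% of all, and the CCAAT box in 4 and in 37.4%. The TATA box was in 0 of the 27 and in 13.6% of all. The printed Lamb1 stretch has 2 GC boxes, whose last bases lie at -79 and -70 from the start, and the upstream stretch of Itga3 has 3. A match says only that these letters occur in the window.

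Of the 37 genes, 22 were above the floor on all 30 arrays, 12 on some, and 3 on none: Itgb1bp2, a muscle protein that binds the beta1 tail, Itgb2l, and Lama1, the laminin chain of embryonic basement membranes. The mean of at least 1 group reached the floor for 33 of the 37, against 18204 of all 30142 genes. Among the leukocyte subunits, Itgae, the E-cadherin receptor of intraepithelial T cells, was under the floor on 29 arrays and Itgal on 18. Itga7, a laminin receptor of muscle, was under it on 22. Itgb3 was under the floor on 11 arrays, all of them KO.

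In WT uterus 2 h after E2, 10 of the 37 genes were called, 6 higher and 4 lower, or 27% of them against 19% of all genes (9.84% higher and 9.18% lower). At 24 h after E2, 20 were called, 10 in each direction, or 54.1% against 30.1% of all genes (16.8% higher and 13.3% lower). With each array centred on its median this became 16 calls with 11 higher, and with quantile normalization 15 with 6 higher. At 2 h after IGF1, 11 were called, 8 higher and 3 lower, or 29.7% against 17.2% of all genes (9.54% and 7.64%); centring the arrays gave 13 with 11 higher. After 24 h of IGF1 none was called by limma, against 4.28% of all genes, and 4 had an unadjusted p under 0.05. With dim genes removed, 10, 19 and 12 of 33 genes were called for E2 at 2 h, E2 at 24 h and IGF1 at 2 h, beside 32.3%, 46% and 30% of the 18204 genes kept, so the 2 h share for E2 lies below that of the other measured genes and those of the other 2 comparisons lie above.

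The KO uterus gave fewer calls. At 2 h after E2 limma called none of the 37, against 0.365% of all genes, with 8 at an unadjusted p under 0.05. At 24 h after E2 limma called none, and 0% of all genes, with 2 of the 37 at an unadjusted p under 0.05. At 2 h after IGF1, 5 were called, 2 higher and 3 lower, against 7.13% of all genes (4.19% higher and 2.95% lower). After 24 h of IGF1, 3 were called, 1 higher and 2 lower, against 13.6% (9.28% and 4.35%), and quantile normalization gave 1, which was lower. Once dim genes are removed, IGF1 in KO called 14.1% of genes at 2 h and 25.5% at 24 h. With dim genes kept among the 37, their 2 h share lies near the first of these and their 24 h share below the second. Between the vehicle groups, 6 of the 37 differed by genotype, 3 higher and 3 lower in KO, or 16.2% against 2.92% of all genes (1.61% and 1.3%) and 5.38% of genes once dim ones are removed. Over these 9 comparisons 27 of the 37 genes (73%) were called at least once, against 46.3% of all genes. With dim genes removed it was 25 of 33 (75.8%) against 71.9%, so the share lies near that of other measured genes. The median difference of the 37 was -0.00 for E2 at 2 h and -0.20 for E2 at 24 h in WT, beside -0.0898 and -0.101 over all genes.

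**Figure D1:**
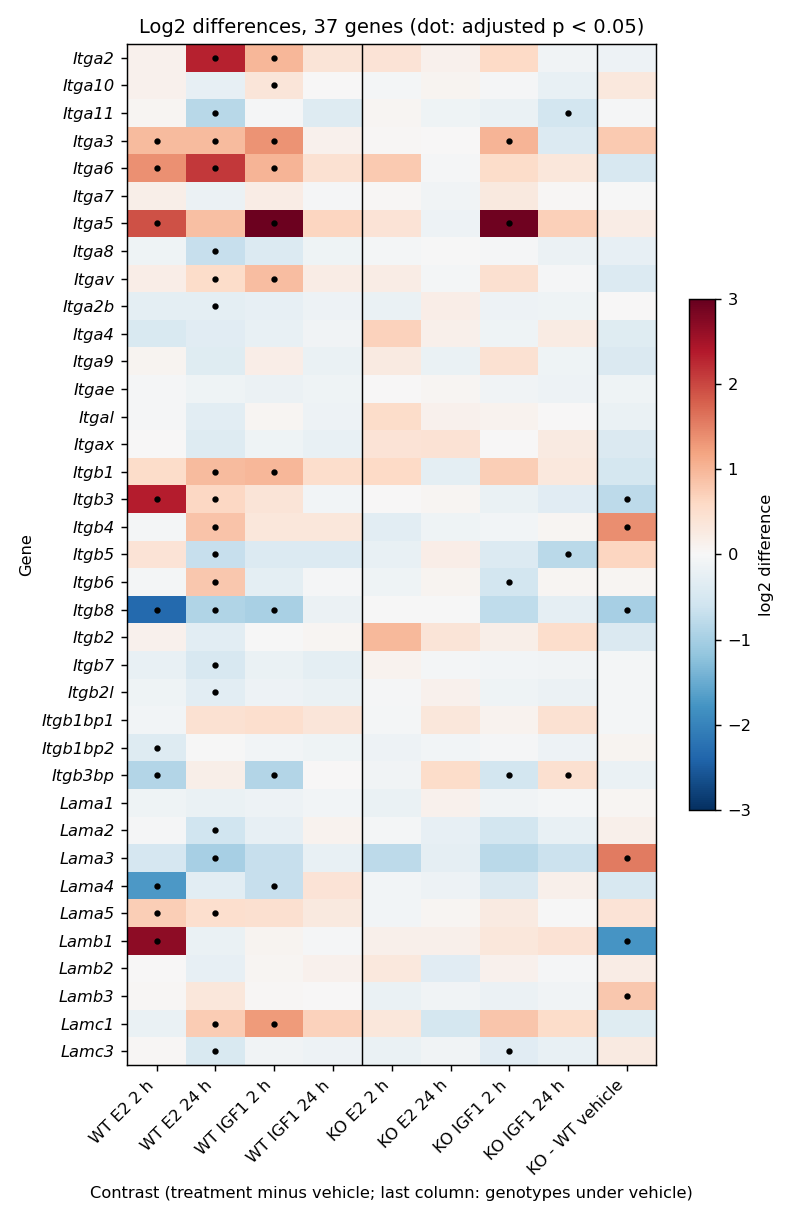
Log2 differences of the 37 integrin and laminin genes (vertical axis) in the 8 comparisons with vehicle and the comparison of genotypes under vehicle (horizontal axis). The colour gives the difference and a dot marks a limma adjusted p under 0.05, with 20 dots for E2 at 24 h in WT and none for E2 in KO.

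Of the 3 laminin-binding alpha subunits, Itga6 and Itga3 rose after E2 in WT uterus. Itga6, which pairs with Itgb4 in hemidesmosomes and with Itgb1 elsewhere, stood at 8.76, 9.13 and 9.07 under vehicle, at 10.53, 10.34 and 10.24 at 2 h, and at 11.20, 10.93 and 11.21 at 24 h. All arrays at 2 h were above all vehicle arrays, and all at 24 h were above all at 2 h. The rise was 1.38 ± 0.21 at 2 h (limma adjusted p = 3.45e-05) and 2.13 ± 0.21, or 4.37-fold, at 24 h (limma adjusted p = 5.75e-08), with SE here and below. Between the 2 times Itga6 rose by a further 0.75 (limma adjusted p = 0.00878). After IGF1 it stood at 10.01, 9.69 and 10.30 at 2 h, 1.01 ± 0.21 above vehicle (limma adjusted p = 0.00134). At 24 h E2 gave 1.67 more than IGF1 (limma adjusted p = 7.22e-06).

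In KO uterus Itga6 was 8.51, 8.31 and 8.67 under vehicle and 8.57, 8.26 and 8.53 at 24 h after E2, with full overlap. The change was -0.04 (95% interval -0.48 to 0.39), and it differed from that in WT by -2.17 ± 0.30 (limma adjusted p = 1.77e-05). At 2 h after E2 the KO arrays stood at 9.52, 9.59 and 8.73, all above KO vehicle. That difference was 0.78 (95% interval 0.35 to 1.22; limma adjusted p = 0.106), and the difference between genotypes at 2 h, -0.60, did not pass (limma adjusted p = 0.286).

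Itga3, a laminin receptor at the base of epithelia, stood at 7.72, 8.11 and 7.82 on the WT vehicle arrays. It was 9.08, 8.81 and 8.63 at 2 h after E2, 8.76, 8.77 and 8.95 at 24 h after E2, and 9.26, 9.15 and 9.30 at 2 h after IGF1. None of these overlapped vehicle, while the 24 h IGF1 arrays, 7.94, 8.12 and 7.95, did. The rises were 0.96 ± 0.22 (limma adjusted p = 0.00309), 0.95 (limma adjusted p = 0.00247) and 1.35 ± 0.22, or 2.55-fold (limma adjusted p = 0.000161). KO arrays stood at 8.63, 8.93 and 8.45 under vehicle and at 10.42, 9.66 and 9.01 at 2 h after IGF1. The KO rise was 1.02 ± 0.22 (limma adjusted p = 0.00768). It lost its call without KO IGF1 2 h replicate 1 (0.66; limma adjusted p = 0.0901) and when the fit held the 2 compared groups alone (limma adjusted p = 0.331). In KO uterus E2 left Itga3 within 0.03 of vehicle at 2 h (95% interval -0.43 to 0.5). At 24 h the response to E2 differed between genotypes by -0.92 (limma adjusted p = 0.0399), and this call was lost without WT vehicle replicate 1 (-0.84; limma adjusted p = 0.094) and held under 10 of 20 alternatives, being lost also without any 1 of the 3 WT E2 24 h arrays, without WT vehicle replicate 3, KO vehicle replicate 2 or KO E2 24 h replicate 1 or 2 (highest limma adjusted p over all alternatives 0.2). The third laminin-binding subunit, Itga7, was called in none of the 9 comparisons.

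**Figure D2:**
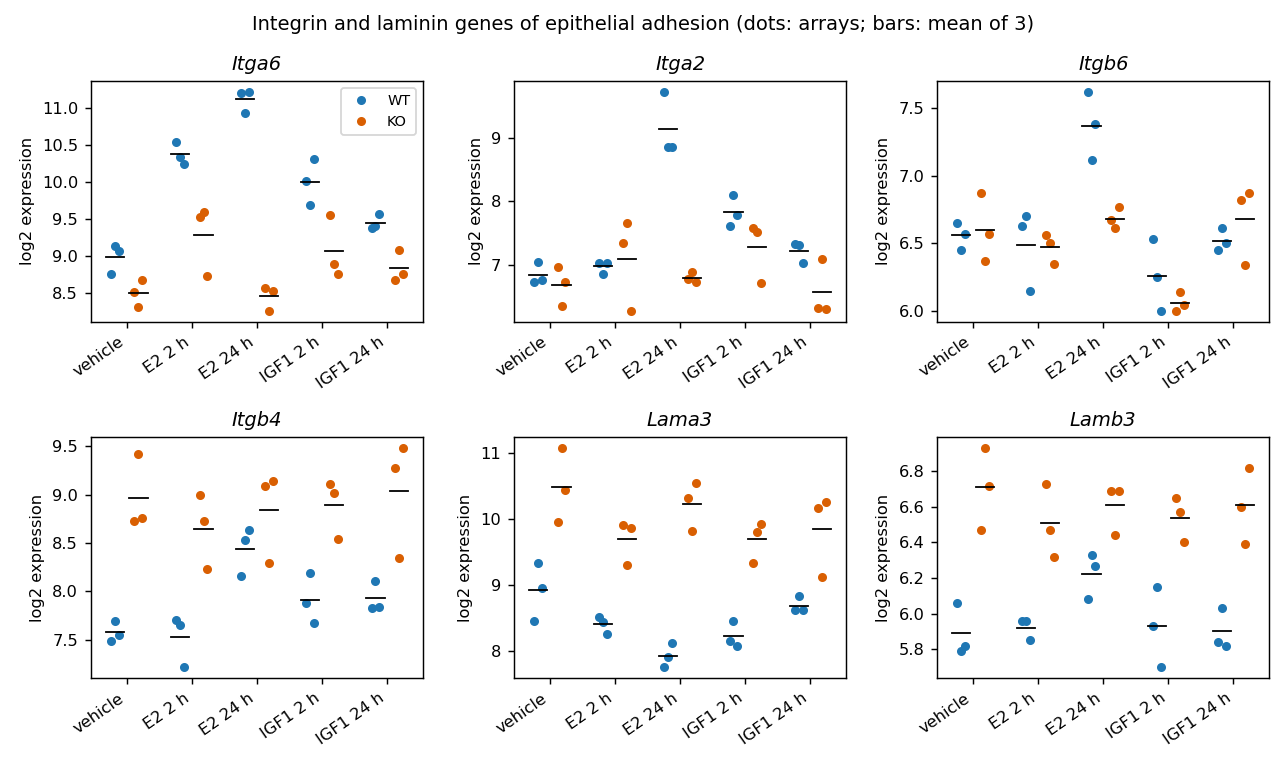
Log2 signal (vertical axis) of Itga6, Itga2, Itgb6, Itgb4, Lama3 and Lamb3 in the 10 groups (horizontal axis), WT in blue and KO in orange; dots are arrays and bars the mean of 3. The 3 WT arrays at 24 h after E2 are the highest for Itga6, Itga2 and Itgb6, and the KO arrays lie above the WT arrays for Lama3 at every treatment and time.

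Of the collagen-binding alpha subunits, Itga2, the epithelial and platelet receptor for collagen, rose late. Under vehicle the WT arrays stood at 6.73, 7.04 and 6.75, the 2 h E2 arrays at 7.03, 6.85 and 7.03, and the 24 h E2 arrays at 9.72, 8.86 and 8.85. The 24 h arrays were all well above the rest and the 2 h arrays overlapped vehicle. Itga2 rose by 2.30 ± 0.29 at 24 h, or 4.94-fold (limma adjusted p = 1.87e-06), and by 2.17 from 2 h to 24 h (limma adjusted p = 3.28e-06). At 24 h it was 1.93 higher after E2 than after IGF1 (limma adjusted p = 7.07e-05). KO uterus at 24 h after E2 stood at 6.77, 6.88 and 6.73, between KO vehicle arrays of 6.35 and 6.96. The response differed between genotypes by -2.19 ± 0.41 (limma adjusted p = 0.000546). IGF1 at 2 h gave 7.60, 8.10 and 7.78 in WT, a rise of 0.99 ± 0.29 (limma adjusted p = 0.0202). This call was lost without WT vehicle replicate 1 (0.93; limma adjusted p = 0.0676) or 3 (0.94; 0.0576) and without WT IGF1 2 h replicate 2 (0.85; 0.0981).

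The other collagen receptors were near the floor. Itga11, a receptor of fibroblasts for fibrillar collagen, stood at 6.28, 6.18 and 6.39 under WT vehicle and at 5.43, 5.41 and 5.53 at 24 h after E2. The later arrays were all under the floor, so the fall was at least 1.44-fold (limma adjusted p = 0.000131), a bound set against the floor itself. Itga11 also fell by 0.54 after 24 h of IGF1 in KO (limma adjusted p = 0.0152), a call lost without KO vehicle replicate 3 (-0.39; limma adjusted p = 0.107) or KO IGF1 24 h replicate 2 (-0.46; 0.0843). Itga10 was called only after IGF1 at 2 h in WT among the 9 comparisons, at 0.36 and at least 1.05-fold (limma adjusted p = 0.0267). That call was lost without WT IGF1 2 h replicate 2 (0.23; limma adjusted p = 0.199) and without WT vehicle replicate 2 (0.34; 0.0659) or 3 (0.35; 0.063), and whether the change differed from the other groups was not tested.

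Among the receptors for RGD ligands, Itga5, the alpha subunit of the main fibronectin receptor, gave the largest IGF1 response of the 37 genes in both genotypes. WT vehicle arrays stood at 7.67, 7.80 and 7.99, and the 2 h IGF1 arrays at 10.86, 10.64 and 10.74. The 2 sets lay far apart, and Itga5 rose by 2.93 ± 0.42, or 7.6-fold (limma adjusted p = 4.5e-05). KO vehicle arrays stood at 7.91, 8.04 and 8.16 and KO IGF1 arrays at 11.92, 11.84 and 9.10. All 3 KO arrays were above vehicle, with replicate 3 far below the other two. The KO rise was 2.92 ± 0.42, or 7.54-fold (limma adjusted p = 0.000516), and 3.84 without replicate 3 (limma adjusted p = 2.04e-10). When the fit held the 2 compared groups alone it did not pass (limma adjusted p = 0.302). The responses of the genotypes differed by -0.01 ± 0.60, an interval of -1.25 to 1.23.

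E2 also raised Itga5 in WT at 2 h, to 9.99, 9.67 and 9.54, with no overlap with vehicle. The rise was 1.91 ± 0.42, or 3.77-fold (limma adjusted p = 0.0019), and 1.01 ± 0.42 below that after IGF1, a difference that did not pass (limma adjusted p = 0.232). By 24 h the E2 arrays were 8.63, 8.71 and 8.82, or 0.90 above vehicle (limma adjusted p = 0.114). After 24 h of IGF1 Itga5 was 2.28 lower than at 2 h (limma adjusted p = 0.000602). KO arrays at 2 h after E2 stood at 8.38, 8.60 and 8.40, or 0.42 above vehicle (95% interval -0.45 to 1.3). The difference from the WT response, -1.49 ± 0.60, did not pass (limma adjusted p = 0.151). In KO at 2 h, E2 gave 2.49 less Itga5 than IGF1 (limma adjusted p = 0.00493). The difference ranged from -3.42 to -2.01 over the alternatives, and the call was lost without KO IGF1 2 h replicate 1 (-2.01; limma adjusted p = 0.0633) or 2 (-2.05; 0.0592) and with these 2 groups alone in the fit (limma adjusted p = 0.547).

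Itgav, which pairs with several beta subunits, rose by 0.92 ± 0.19 at 2 h after IGF1 in WT (limma adjusted p = 0.00156), from 9.03, 9.60 and 9.52 to 10.49, 9.99 and 10.43. All 3 IGF1 arrays were above all vehicle arrays. Its rise of 0.55 at 24 h after E2 (limma adjusted p = 0.0354) was 0.37 without WT vehicle replicate 1 (limma adjusted p = 0.212), and the call was also lost without any 1 of the 3 E2 arrays. Itga8, a nephronectin receptor of smooth muscle and mesenchyme, fell by 0.69 at 24 h after E2 in WT (limma adjusted p = 0.0176), a call lost once arrays were centred (-0.58; limma adjusted p = 0.0771), without WT vehicle replicate 3 (-0.54; 0.0893) and without WT E2 24 h replicate 2 (-0.65; 0.0576) or 3 (-0.67; 0.0514). Itga2b, the platelet subunit, fell by 0.30 there (limma adjusted p = 0.0413) and by 0.17 without WT vehicle replicate 1 (limma adjusted p = 0.283), and this call too was lost without any 1 of the E2 arrays.

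Itgb3, which pairs with Itgav as the vitronectin receptor and with Itga2b on platelets, rose most of the beta subunits at 2 h after E2. WT vehicle arrays stood at 6.70, 6.81 and 6.72, and the 2 h E2 arrays at 9.43, 8.76 and 9.10. The 2 h arrays were all more than 1 log2 unit above every vehicle array. Itgb3 rose by 2.35 ± 0.15, or 5.11-fold (limma adjusted p = 3.61e-11). At 24 h it stood at 7.41, 7.44 and 7.24, still 0.62 above vehicle (limma adjusted p = 0.0031) and 1.74 below 2 h (limma adjusted p = 4.03e-09). IGF1 arrays at 2 h were 7.16, 7.02 and 7.19, and E2 gave 1.97 ± 0.15 more than IGF1 at that time (limma adjusted p = 1.24e-09).

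In KO uterus Itgb3 stood at 6.07, 5.92 and 5.92 under vehicle, all under the floor, and at 6.0, 6.0 and 5.90 at 2 h after E2. The arrays overlapped, with a difference of -0.00 (95% interval -0.31 to 0.31). A change below the floor would not have been seen there. The responses of the genotypes differed by -2.36 ± 0.21 (limma adjusted p = 5.64e-08). Under vehicle, KO uterus had at least 1.57-fold less Itgb3 than WT (limma adjusted p = 0.00334; 0.0656 with these 2 groups alone in the fit).

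Itgb8, which with Itgav activates latent TGF-beta, fell at 2 h. The WT arrays stood at 8.98, 9.86 and 10.07 under vehicle, E2 arrays at 7.09, 7.75 and 7.09, and IGF1 arrays at 8.77, 8.25 and 8.94. The E2 arrays lay below all others of WT, and the IGF1 arrays just below vehicle. Itgb8 fell by 2.33 ± 0.26 after E2, or 5.01-fold (limma adjusted p = 5.55e-07), and by 0.98 ± 0.26 after IGF1 (limma adjusted p = 0.0102). The IGF1 call was lost without WT IGF1 2 h replicate 2 (-0.78; limma adjusted p = 0.0776), without WT vehicle replicate 3 (-0.77; 0.069) and with these 2 groups alone in the fit (limma adjusted p = 0.0987). The agents differed by -1.34 at 2 h (limma adjusted p = 0.00153). At 24 h after E2 the arrays were 9.03, 8.65 and 8.50, which overlapped vehicle through its replicate 1, and the fall was 0.91 ± 0.26 (limma adjusted p = 0.0108). It lost its call without WT vehicle replicate 3 (-0.69; limma adjusted p = 0.0698), without WT E2 24 h replicate 3 (-0.80; 0.0548) and with these 2 groups alone (limma adjusted p = 0.065). KO arrays were 8.52, 8.47 and 8.91 under vehicle and 8.48, 8.66 and 8.72 at 2 h after E2, with a difference of -0.01 (95% interval -0.55 to 0.53). The responses of the genotypes differed by 2.31 ± 0.37 (limma adjusted p = 0.000214). Under vehicle, Itgb8 differed by -1.0 ± 0.26, lower in KO (limma adjusted p = 0.0345), a call lost on centring the arrays (limma adjusted p = 0.0626) and without WT vehicle replicate 2 or 3 or KO vehicle replicate 1 or 2.

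**Figure D3:**
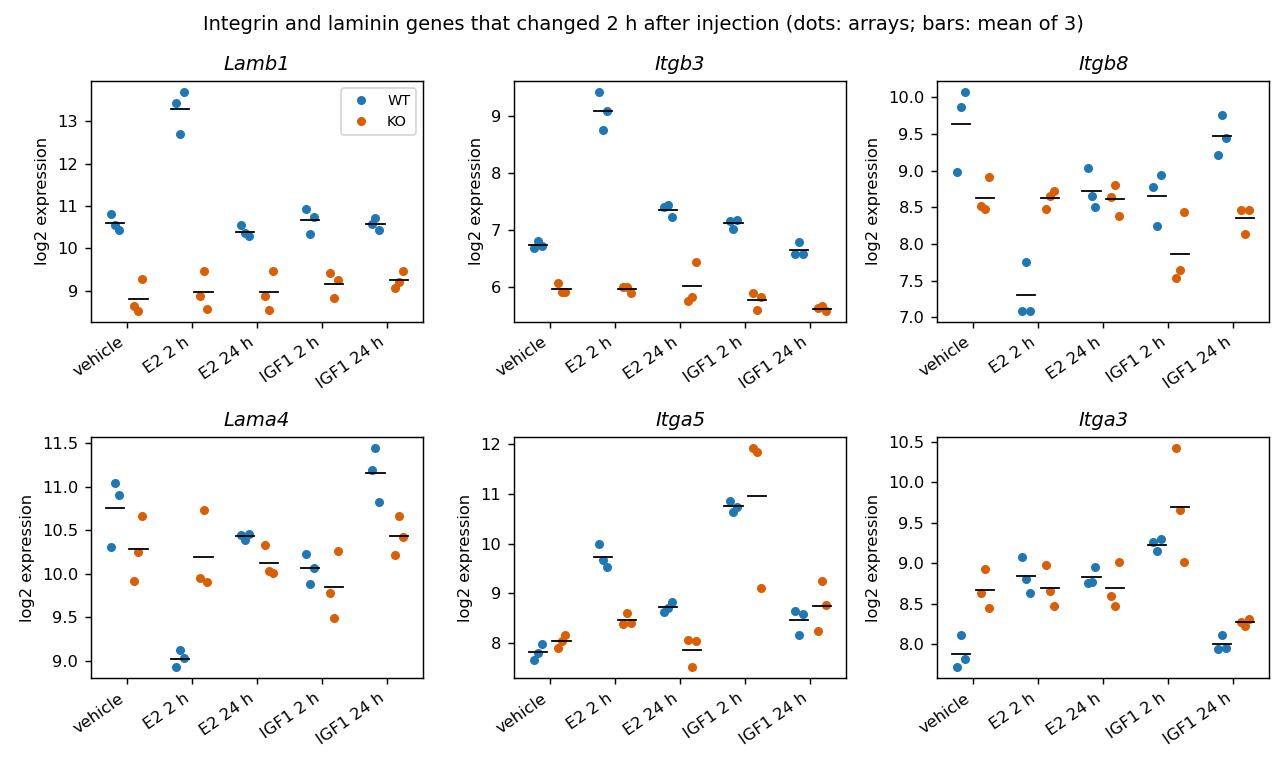
Log2 signal (vertical axis) of Lamb1, Itgb3, Itgb8, Lama4, Itga5 and Itga3 in the 10 groups (horizontal axis), WT in blue and KO in orange; dots are arrays and bars the mean of 3. The WT arrays at 2 h after E2 are the highest for Lamb1 and Itgb3 and the lowest of WT for Itgb8 and Lama4, and Itga5 is highest at 2 h after IGF1 in both genotypes.

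The other beta subunits moved mostly at 24 h after E2. Itgb1, the partner of most alpha subunits here, stood at 12.83, 13.46 and 13.51 under WT vehicle, at 14.10, 14.25 and 14.28 at 24 h after E2 and at 14.21, 14.17 and 14.38 at 2 h after IGF1. It rose by 0.94 ± 0.27 (limma adjusted p = 0.0107) and by 0.99 ± 0.27 (limma adjusted p = 0.0126). The lowest vehicle array was replicate 1. Without it the differences were 0.73 (limma adjusted p = 0.0778) and 0.77 (limma adjusted p = 0.0904), and with quantile normalization the E2 value was 0.18 (limma adjusted p = 0.671). The mean of 7 smooth muscle markers moved with it: 12.88 to 13.72 on the WT vehicle arrays, lowest on replicate 1, 14.42 to 14.61 at 24 h after E2 and 13.82 to 14.46 at 2 h after IGF1, with no overlap with vehicle. Of the 7, 2 were called higher at 24 h after E2 and 1 at 2 h after IGF1, none lower, and none of the 7 was under the floor on all arrays. The part of muscle content in Itgb1 was not tested. Itgb6, an epithelial partner of Itgav, stood at 6.65, 6.45 and 6.57 under WT vehicle and at 7.62, 7.12 and 7.38 at 24 h after E2. No arrays overlapped, and Itgb6 rose by 0.82 ± 0.17 (limma adjusted p = 0.000565; 0.00132 without WT vehicle replicate 1). KO arrays at that time were 6.67, 6.61 and 6.77, and the responses differed by -0.74 (limma adjusted p = 0.0274; 0.064 without KO E2 24 h replicate 2), a call also lost without WT E2 24 h replicate 1 or KO vehicle replicate 1. Itgb6 fell by 0.55 at 2 h after IGF1 in KO (limma adjusted p = 0.0463), a call that held under 5 of 14 alternatives. It was lost with each scaling, with array weights (limma adjusted p = 0.203), with these 2 groups alone (limma adjusted p = 0.318), without any 1 of the 3 IGF1 arrays (-0.58 to -0.52; limma adjusted p = 0.0654 to 0.198) and without KO vehicle replicate 1 (-0.41; 0.218) or 3 (-0.57; 0.0864).

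Itgb5, a vitronectin receptor subunit, fell by 0.69 at 24 h after E2 in WT (limma adjusted p = 0.0162), from 10.28, 10.19 and 9.87 to 9.50, 9.34 and 9.43. The call was lost on centring the arrays (-0.58; limma adjusted p = 0.054), without WT vehicle replicate 1 (-0.61; limma adjusted p = 0.0697) and without WT E2 24 h replicate 2 (-0.65; 0.0546). After 24 h of IGF1 in KO it fell by 0.81 (limma adjusted p = 0.0114), and by 0.55 without KO IGF1 24 h replicate 2 (limma adjusted p = 0.108). Itgb7, the beta subunit of gut-homing lymphocytes, fell by 0.48 at 24 h after E2 in WT (limma adjusted p = 0.003; 0.0586 with these 2 groups alone in the fit).

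Itgb4, the hemidesmosome subunit that pairs with Itga6, differed between genotypes without treatment. WT vehicle arrays stood at 7.49, 7.70 and 7.55 and KO vehicle arrays at 8.73, 9.42 and 8.76. Every KO array was more than 1 log2 unit above every WT array. The difference was 1.39 ± 0.27, or 2.62-fold (limma adjusted p = 0.00345), and it was called under all alternatives run. In WT uterus E2 raised Itgb4 at 24 h by 0.86 ± 0.27, to 8.16, 8.53 and 8.63 (limma adjusted p = 0.0191). That call was lost without WT vehicle replicate 1 (0.81; limma adjusted p = 0.0612), without WT E2 24 h replicate 2 (0.81; 0.0594) or 3 (0.76; 0.0773), and with quantile normalization (0.68; 0.0593). In KO uterus the change at that time was -0.13 (95% interval -0.69 to 0.43).

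Lama3 and Lamb3 are the alpha and beta chains of the laminin beneath hemidesmosomes, and both were higher in KO. Lama3 stood at 8.46, 9.34 and 8.95 on WT vehicle arrays and at 9.96, 11.07 and 10.43 on KO vehicle arrays. The lowest KO array was above the highest WT array. The difference was 1.57 ± 0.28, or 2.96-fold (limma adjusted p = 0.00173; 0.108 with these 2 groups alone in the fit), and 1.34 without WT vehicle replicate 1 (limma adjusted p = 0.0157). Lamb3 stood at 6.06, 5.79 and 5.82 in WT, all under the floor, and at 6.47, 6.93 and 6.72 in KO, at least 1.51-fold higher (limma adjusted p = 0.00115; 0.117 with these 2 groups alone). Lama3 fell by 0.99 ± 0.28 at 24 h after E2 in WT, to 7.76, 7.91 and 8.12 (limma adjusted p = 0.0106), and by 0.78 without WT vehicle replicate 2 (limma adjusted p = 0.0597).

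Epithelial markers moved in the same comparisons. The mean log2 signal of 10 epithelial genes, among them Epcam, Cdh1 and Krt8, was 8.97 to 9.34 on the WT vehicle arrays, 9.97 to 10.35 on the KO vehicle arrays and 11.46 to 11.49 in WT at 24 h after E2. Between genotypes under vehicle 4 of the 10 were called higher and none lower, and at 24 h after E2 in WT 8 were called higher. None of the 10 was under the floor on all arrays. In bulk tissue fewer cells of a type and less RNA per cell cannot be told apart, and the part of epithelial content in the values of Itga2, Itga6, Itgb4, Itgb6, Lama3 and Lamb3 was not tested. Lama3 fell in WT at 24 h after E2, where the epithelial list was highest. That fall of Lama3 lost its call without WT vehicle replicate 2, and what lay behind it was not tested.

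Lamb1, a beta chain of the laminins of most basement membranes, had the largest rise of the 37 genes at 2 h after E2. Under vehicle the WT arrays stood at 10.81, 10.55 and 10.44, E2 arrays at 2 h at 13.44, 12.71 and 13.69, and E2 arrays at 24 h at 10.56, 10.36 and 10.29. The 2 h arrays were far above all others, and the 24 h arrays overlapped vehicle. Lamb1 rose by 2.68 ± 0.26 at 2 h, or 6.41-fold (limma adjusted p = 6.52e-08), and then fell by 2.88 ± 0.26 between 2 h and 24 h (limma adjusted p = 9.7e-09). At 24 h it was -0.20 from vehicle (95% interval -0.74 to 0.35). IGF1 arrays at 2 h stood at 10.93, 10.35 and 10.74, 0.08 from vehicle (95% interval -0.47 to 0.62). E2 gave 2.60 ± 0.26 more Lamb1 than IGF1 at 2 h (limma adjusted p = 1.64e-07).

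In KO uterus Lamb1 stood at 8.64, 8.53 and 9.29 under vehicle and at 8.87, 9.48 and 8.57 at 2 h after E2. The arrays overlapped, with a difference of 0.15 (95% interval -0.40 to 0.70), and the responses of the genotypes differed by -2.53 ± 0.37 (limma adjusted p = 7.85e-05). Under vehicle every KO array was below every WT array, by 1.78 ± 0.26 on average, or 3.43-fold (limma adjusted p = 0.000233). All 15 KO arrays were below all 15 WT arrays.

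Lama4, the laminin alpha chain of vessels, muscle and mesenchyme, fell at 2 h after E2 in WT. Vehicle arrays stood at 10.31, 11.04 and 10.90 and the E2 arrays at 8.93, 9.12 and 9.03. The 2 sets did not overlap, and Lama4 fell by 1.73 ± 0.23, or 3.31-fold (limma adjusted p = 6.04e-06). By 24 h it was 1.40 above 2 h (limma adjusted p = 4.47e-05). After IGF1 at 2 h it fell by 0.69 ± 0.23 (limma adjusted p = 0.0403), a call that held under 7 of 14 alternatives. It was lost on centring the arrays (-0.58; limma adjusted p = 0.135), without any 1 of the 3 IGF1 arrays (-0.78 to -0.60; limma adjusted p = 0.0505 to 0.145) and without WT vehicle replicate 2 (-0.55; 0.144) or 3 (-0.61; 0.117). At 2 h E2 gave 1.04 less than IGF1 (limma adjusted p = 0.0053). KO arrays stood at 9.92, 10.25 and 10.66 under vehicle and at 9.95, 10.73 and 9.90 at 2 h after E2, with a difference of -0.09 (95% interval -0.56 to 0.39). The responses of the genotypes differed by 1.64 ± 0.33 (limma adjusted p = 0.00196). The mean of 5 stromal markers fell alongside, from 12.24 to 12.67 on the WT vehicle arrays to 10.89 to 11.05 at 2 h after E2, with 3 of the 5 called lower. The endothelial list had 2 of 6 called lower, and 9.03 to 9.21 against 9.02 to 9.64 under vehicle. Their part in the fall of Lama4 and Itgb8 was not tested.

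Lamc1, the gamma chain of most laminins, rose after IGF1. WT vehicle arrays stood at 10.33, 11.26 and 10.99 and the 2 h IGF1 arrays at 12.34, 11.81 and 12.26. All IGF1 arrays were above all vehicle arrays, of which replicate 1 was lowest. The rise was 1.28 ± 0.27, or 2.42-fold (limma adjusted p = 0.00164), and 1.01 without WT vehicle replicate 1 (limma adjusted p = 0.018). At 2 h E2 gave 1.48 ± 0.27 less Lamc1 than IGF1 (limma adjusted p = 0.000804). At 24 h after E2 the rise of 0.76 (limma adjusted p = 0.0384) was 0.49 without WT vehicle replicate 1 (limma adjusted p = 0.244), and its call was lost without WT vehicle replicate 3 or any 1 of the E2 arrays as well (0.31 to 0.96 over the alternatives). KO arrays at 2 h after IGF1, 11.89, 11.25 and 10.86, were 0.84 above vehicle (limma adjusted p = 0.0631). The WT and KO responses to IGF1 differed by -0.44 (95% interval -1.24 to 0.36).

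The remaining laminins moved less. Lama5, the main alpha chain of adult epithelial basement membrane, rose by 0.74 ± 0.17 at 2 h after E2 in WT (limma adjusted p = 0.00303), from 7.18, 7.62 and 7.41 to 8.35, 8.04 and 8.03. No arrays overlapped. At 24 h the rise was 0.50 (limma adjusted p = 0.0325), and 0.38 without WT vehicle replicate 1 (limma adjusted p = 0.157), with the call lost also without WT vehicle replicate 3 or any 1 of the E2 arrays. Lama2, the alpha chain of muscle laminin, fell by 0.60 at 24 h after E2 (limma adjusted p = 0.0481), a call lost on centring the arrays (-0.49; limma adjusted p = 0.17), without WT vehicle replicate 2 (-0.44; 0.174) or 3 (-0.54; 0.117) and without any 1 of the 3 E2 arrays (-0.66 to -0.50). Lamc3 fell by 0.46 there (limma adjusted p = 0.000418) and by 0.35 at 2 h after IGF1 in KO (limma adjusted p = 0.019). The KO call was lost without KO IGF1 2 h replicate 1 (-0.26; limma adjusted p = 0.182) or KO vehicle replicate 2 (-0.33; 0.0742). With the 2 compared groups alone in the fit, the KO call of Lamc3 was lost as well. Lamb2, the beta chain of muscle and vessel laminins, was called in none of the 9 comparisons, and its largest difference was -0.33 (95% interval -0.82 to 0.16) in KO at 24 h after E2.

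Of the binding proteins, Itgb3bp, which is also a kinetochore protein, fell at 2 h after both agents in WT. Vehicle arrays stood at 7.75, 7.26 and 7.28, E2 arrays at 6.69, 6.51 and 6.48, and IGF1 arrays at 6.70, 6.33 and 6.59. All treated arrays were below all vehicle arrays. The falls were 0.87 ± 0.15 (limma adjusted p = 0.000192) and 0.89 ± 0.15 (limma adjusted p = 0.000236). In KO it fell by 0.54 at 2 h after IGF1 (limma adjusted p = 0.035) and rose by 0.48 after 24 h (limma adjusted p = 0.0379). These KO calls held under 9 and 8 of 14 alternatives; the first was lost without IGF1 2 h replicate 1 or 2 or KO vehicle replicate 1 or 3 (-0.55 to -0.45), and the second without IGF1 24 h replicate 1 or 3 or KO vehicle replicate 1 or 2 (0.38 to 0.52). The fall of Itgb3bp at 2 h in KO also lost its call when the fit held the 2 compared groups alone. Itgb1bp1, a negative regulator of the beta1 tail, was called in none of the 9 comparisons. Itgb1bp2 at 2 h after E2 and Itgb2l at 24 h after E2 in WT were called lower (limma adjusted p = 0.0172 and 0.0235) with both groups under the floor, so no fold is given. Without WT vehicle replicate 1 neither passed (limma adjusted p = 0.0712 and 0.06). The Itgb1bp2 call was also lost without WT E2 2 h replicate 1 (0.127), and that of Itgb2l without WT vehicle replicate 2 (0.077) or WT E2 24 h replicate 2 (0.0501) or 3 (0.136).

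The leukocyte subunits Itgae, Itgal, Itgax and Itgb2, and Itga4 and Itga9, which bind VCAM1 and tenascin, were called in none of the 9 comparisons. KO E2 2 h replicate 2 stood high for several of them. Itgb2, the common beta subunit of leukocytes, was 7.26, 8.82 and 7.49 on those arrays and 6.53, 7.03 and 7.10 under KO vehicle. Itga4 was 6.34, 7.65 and 6.58 against 5.99, 6.19 and 6.32. In each set replicate 2 was more than 1 log2 unit above the other two. The mean of 4 general leukocyte markers was 7.63, 9.36 and 7.72 on the same arrays, against 7.06 to 7.57 under KO vehicle, and that of 6 macrophage markers was 7.93, 9.69 and 7.58, against 7.16 to 7.90. Itga4 responded to E2 at 2 h differently in the genotypes, by 1.14 (limma adjusted p = 0.0101), and by 0.74 without that array (limma adjusted p = 0.00598). When the fit held these 4 groups alone it did not pass (limma adjusted p = 0.109). The part of leukocyte content was not tested.

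Counted over the set, the response to E2 differed between genotypes for 7 of the 37 genes at 2 h, against 8% of all genes, and for 11 at 24 h, against 22.1%. Once dim genes are removed, the shares of all genes are 15.4% and 30.8%. With dim genes kept among the 37, their 24 h share lies near that of measured genes and their 2 h share a little above. At 2 h the 7 genes were Lamb1, Itgb3, Itgb8, Lama4, Lama5, Itga4 and Itgb3bp, with 4 differences upward and 3 downward in KO (3.61% and 4.39% of all genes). At 24 h 5 were upward and 6 downward (9.96% and 12.2%). On centring the arrays 9 were called at 24 h, none upward, and 6 of these were among the 11. With quantile normalization 7 were called, 2 upward, and 4 were among the 11. The 5 upward calls, Itga11, Itga2b, Itgax, Itgb2l and Itgb5, all lost their call on centring. Here the median over all genes was itself 0.189. For IGF1 limma called none of the 37 at 2 h, against 0.0133% of all genes, with 2 at an unadjusted p under 0.05, and none at 24 h, against 0.00664%, with 1. In the plot of KO against WT changes, Lamb1, Itgb3, Itgb8 and Lama4 at 2 h after E2 and Itga2 and Itga6 at 24 h lie near the horizontal axis. Itga6 at 2 h lies off it, at 1.38 in WT and 0.78 in KO, and Itga5 under IGF1 lies on the diagonal.

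**Figure D4:**
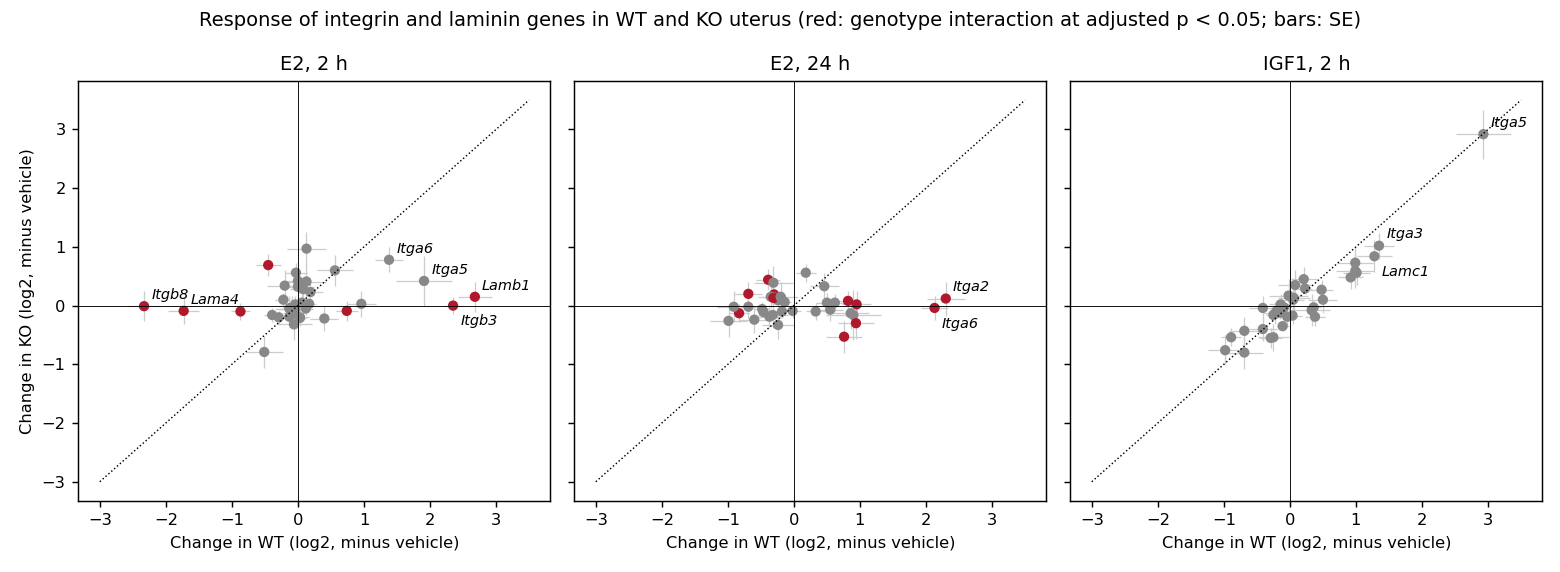
Change against vehicle in KO (vertical axis, log2) over that in WT (horizontal axis, log2) for the 37 genes, with SE bars, for E2 at 2 h, E2 at 24 h and IGF1 at 2 h; the dotted line marks equal change. Red points have a genotype difference at a limma adjusted p under 0.05, 7 at 2 h and 11 at 24 h after E2 and none after IGF1; Itga5 under IGF1 lies at 2.93 in WT and 2.92 in KO.

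Between 2 h and 24 h after E2 in WT, 16 of the 37 genes were called, 9 higher and 7 lower, against 27.4% of all genes (17% and 10.4%). Between the IGF1 times 8 were called, 3 higher and 5 lower, against 14.5% (7.94% and 6.57%), and 2 of 8 were higher on centring the arrays. Once dim genes are removed, 46.1% of genes were called between the E2 times and 26.8% between the IGF1 times. The counts of the 37 keep dim genes, so their shares are not ranked against these. With the agents set against each other in WT, 7 genes were called at 2 h, 3 of them higher after E2, against 5.57% (2.8% higher and 2.77% lower), and 8 at 24 h, 5 of them higher after E2, against 10.1% (7.59% and 2.49%). On centring, 5 were called at 24 h, all of them among the 8 and all higher after E2. In KO the agents differed for 3 genes at 2 h, 1 higher after E2, against 3.04% (1.14% and 1.9%), and for 5 at 24 h, 4 higher after E2, against 21.5% (10.2% and 11.3%). The last count was 2 with 1 higher on centring, and 3 with 1 higher with quantile normalization. With dim genes removed, the agents differed for 10% of genes at 2 h and 18.5% at 24 h in WT, and for 6.71% and 28.2% in KO. These direct comparisons use no vehicle arrays, but the 24 h groups differ in the number and timing of injections.

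The partners of these genes were read from lists of the adhesion complex inside the cell (32 of 34 genes measured), integrin ligands (29 of 30) and other basement membrane components (30 of 31). Of the adhesion complex, 10 rose and 2 fell at 2 h after E2 in WT, and 14 rose and 1 fell at 2 h after IGF1. That is 37.5% and 46.9% of the list, beside 19% and 17.2% of all genes and 32.3% and 30% of genes once dim ones are removed. Vcl, the vinculin that ties integrins to actin, rose by 1.48 ± 0.37 after E2 (limma adjusted p = 0.00472) and by 1.88 ± 0.37 after IGF1 (limma adjusted p = 0.000731). The actin cross-linker Actn1 rose by 1.38 (limma adjusted p = 0.00148) and 1.55 (limma adjusted p = 0.000637). Fermt1, the kindlin of epithelia, fell by 1.33 at 2 h after E2 (limma adjusted p = 0.000236), rose by 1.95 at 24 h (limma adjusted p = 1.27e-06) and was 0.98 higher in KO than in WT under vehicle (limma adjusted p = 0.0214). The vehicle call was lost without WT vehicle replicate 3 (0.83; limma adjusted p = 0.133) or KO vehicle replicate 1 (0.92; 0.0921) or 2 (0.96; 0.0882). It was also lost with the 2 vehicle groups alone in the fit (limma adjusted p = 0.0774). In KO after IGF1 at 2 h, 7 of this list rose and none fell (21.9%, beside 7.13% of all genes and 14.1% with dim ones removed), with Vcl at 1.31 (limma adjusted p = 0.0315) and Actn1 at 1.34 (limma adjusted p = 0.0083). Both lost their call without KO IGF1 2 h replicate 1 (0.92; limma adjusted p = 0.276, and 1.19; 0.078) and without KO vehicle replicate 1 (0.95; 0.178, and 1.07; 0.0546), and Vcl without KO vehicle replicate 2 (1.42; 0.0548). When the fit held these 2 KO groups alone, 0 of 30142 genes were called, with a limma adjusted p of 0.323 for Vcl and 0.29 for Actn1. The smooth muscle mean, 12.88 to 13.72 under WT vehicle, was 13.56 to 13.90 at 2 h after E2, an overlap with none of 7 markers called, and 13.82 to 14.46 at 2 h after IGF1. In KO it was 12.58 to 13.61 under vehicle and 13.58 to 14.72 at 2 h after IGF1, with 2 of 7 called higher. Its part in the values of Vcl and Actn1 was not tested.

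Of the ligands, 2 rose and 4 fell at 2 h after E2 in WT, 9 rose and 8 fell at 24 h, and 7 rose and 1 fell at 2 h after IGF1. These are 20.7%, 58.6% and 27.6% of the list, beside 19%, 30.1% and 17.2% of all genes and 32.3%, 46% and 30% once dim genes are removed. The list was counted whole, without removal of dim genes, so its shares are not ranked against the latter. Ccn1, a matricellular ligand of several integrins, rose by 5.57 ± 0.40 at 2 h after E2 (limma adjusted p = 3.32e-10) and by 3.99 ± 0.40 after IGF1 (limma adjusted p = 1.49e-06). Col1a1, a chain of fibrillar collagen, rose by 3.34 ± 0.22 at 24 h after E2 (limma adjusted p = 1.75e-10), and fibronectin, Fn1, rose by 2.04 ± 0.48 (limma adjusted p = 0.00216). Cdh1, the ligand of Itgae and also one of the 10 epithelial markers, rose by 2.86 there (limma adjusted p = 7.91e-08). Thbs1 was 2.21 ± 0.44 lower in KO under vehicle (limma adjusted p = 0.00431) and rose by 3.37 ± 0.44 at 2 h after IGF1 in KO (limma adjusted p = 0.000243; 0.29 with these 2 groups alone in the fit). Of the ligands, 2 were higher and 5 lower in KO than in WT under vehicle, or 24.1% beside 2.92% of all genes and 5.38% with dim ones removed.

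Of the basement membrane components, 5 rose and 5 fell at 2 h after E2 in WT, 13 rose and 5 fell at 24 h, and 10 rose and 4 fell at 2 h after IGF1. The shares were 33.3%, 60% and 46.7%, beside the same shares of all genes (19%, 30.1% and 17.2%) and of genes once dim ones are removed (32.3%, 46% and 30%). The first lies near that of measured genes, though this list too was counted whole. Tinagl1, a laminin-associated matrix protein, rose by 2.22 ± 0.17 at 2 h after E2 (limma adjusted p = 1.01e-09) and by 1.30 ± 0.17 after IGF1 (limma adjusted p = 1.99e-05). Cd151, a tetraspanin that binds the laminin-binding integrins, rose by 2.30 ± 0.49 at 24 h after E2 (limma adjusted p = 0.000971) and by 1.73 ± 0.49 at 2 h after IGF1 (limma adjusted p = 0.0159). The IGF1 call was lost without WT vehicle replicate 1 (1.22; limma adjusted p = 0.131) or WT IGF1 2 h replicate 2 (1.63; 0.0604). Dst, the hemidesmosome linker to keratin, fell by 1.55 ± 0.27 at 24 h after E2 (limma adjusted p = 0.000105). Between genotypes under vehicle 7 were higher in KO and 4 lower, or 36.7% beside 2.92% of all genes and 5.38% with dim ones removed. Ntn4, a netrin that caps laminin, was 1.79 ± 0.26 higher (limma adjusted p = 0.000203), and Egfl6, an RGD protein of basement membranes, was 3.18 ± 0.67 lower on the log2 scale (limma adjusted p = 0.00638) and 2.82 lower without KO vehicle replicate 2 (limma adjusted p = 0.0567).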

How the data were processed

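Total RNA of whole uterus, extracted with Trizol and RNeasy per the labels' protocols, was measured on 30 Affymetrix whole-transcript arrays. The submitters deposited normalized log2 signals per probe set; for these values the normalization, software and build are named in none of the sources used here. Of 72688 probe sets, 30604 had 1 symbol in the platform annotation, 2146 several and 39938 none listed, and 827 symbols were updated. The probe set of highest mean stood for each of 355 genes with several. All 10 group means were fitted with limma 3.58.1 in R 4.3.3 (residual df 20, prior df 3.66), and 19 comparisons were tested, each adjusted over 30142 genes by Benjamini-Hochberg. A fold against a group wholly under the floor is given as a bound.

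The genes and lists were chosen with earlier results of these data known. Array values are given for genes called with at least a 2-fold difference and no overlap between arrays, at most 6 per comparison, and for further genes beside their tests; from each partner list up to 4 called genes of largest change per comparison could be named. Alternatives were other scalings, removal of dim genes, the mean of probe sets, only the compared groups, array weights, a replicate block and arrays left out. Of the 81 same-numbered pairs, deviations from group means correlated at -0.285 to 0.433 (median 0.0143). All 3 pairs were over 0.1 only between the vehicle groups, at 0.433, 0.147 and 0.296. The labels state no pairing, and the main fit took the vehicle arrays as unpaired. Replicate 1 had the highest floor in both vehicle groups, 6.50 in WT and 6.23 in KO. Whether pairing or array quality underlies these correlations was not tested. On simulated data the fit recovered 82% of 50 genes changed by 1 and 100% changed by 2 (log2) for E2 at 24 h in WT. For the genotype difference in that response it recovered 36% and 86%, and for the genotypes under vehicle 70% and 92%. Among unchanged genes, 8, 9 and 9 were called in these 3 comparisons. The simulated arrays shared 1 spread per gene, while the weights of the real arrays ran from 0.166 to 3.66. The rates therefore hold only for arrays of even quality.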

Additional observations from a re-analysis of the deposited data

Results flagged for a closer look

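The change with E2 differed between genotypes, by limma's interaction term, for 18 values of these genes. Each value is the KO change less the WT change, on the log2 scale. At 2 h these were Lamb1 -2.53, Itgb3 -2.36, Lama5 -0.82, Itgb3bp 0.77, Itga4 1.14, Lama4 1.64 and Itgb8 2.31. At 24 h the downward differences were Itga2 -2.19, Itga6 -2.17, Lamc1 -1.29, Itgb1 -1.24, Itga3 -0.92 and Itgb6 -0.74. The upward differences at 24 h were Itgb2l 0.43, Itga2b 0.49, Itga11 0.69, Itgax 0.83 and Itgb5 0.89, and all 5 lost their call when the arrays were centred on their medians. Itgb3 in KO and Itgb2l in both genotypes were under the floor on most or all arrays. Without WT vehicle replicate 1 the calls of Lama5 and Itgb3bp at 2 h, and of Itga2b, Itga3, Itgb1, Itgb2l, Itgb5 and Lamc1 at 24 h, were lost, with limma adjusted p from 0.0552 to 0.094.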

How the results depend on the processing

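Of 120 called values of these genes over the 19 comparisons, 56 stayed called under every alternative run, 64 lost their call under at least 1, and 0 reversed. With the replicate block 0 of the 120 were lost; it gave 6 calls between the vehicle groups, the number without it, and changed no count by over 1.5 times. Fitting only the compared groups gave 13 calls for E2 at 24 h in WT, 0 for IGF1 at 2 h and 0 at 24 h in KO, 2 between genotypes under vehicle, 6 for the genotype difference under E2 at 24 h, 11 for E2 against IGF1 at 2 h in WT, and 0 and 2 for that comparison in KO at 2 h and 24 h. Array weights gave 17 for IGF1 at 2 h and 1 at 24 h in WT, 13 between genotypes under vehicle, 13 between the IGF1 times in WT and 11 for E2 against IGF1 at 2 h in WT. Centring the arrays gave 5 for E2 against IGF1 at 24 h in WT and 2 in KO. Quantile normalization gave 1 for IGF1 at 24 h in KO, 7 for the genotype difference under E2 at 24 h and 3 for E2 against IGF1 at 24 h in KO. Leaving out the 2 arrays of lowest weight gave 5 for the genotype difference under E2 at 24 h. The causes were not tested. Fitting only the compared groups leaves fewer samples and takes the spread from those groups alone. Over all genes it called 10600 between the E2 times in WT, where the main fit called 8265. For IGF1 at 2 h in KO it called 0, where the main fit called 2150.

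Leaving out 1 array at a time gave 11 to 17 calls for E2 at 24 h in WT (11 without its replicate 2 or 3, 12 without WT vehicle replicate 1) and 7 to 10 for IGF1 at 2 h in WT (7 without its replicate 2 or WT vehicle replicate 3). It gave 0 to 2 for E2 at 2 h in KO (2 without its replicate 1), 1 to 10 for IGF1 at 2 h in KO (1, 3 and 10 without replicates 1, 2 and 3) and 1 to 2 for IGF1 at 24 h in KO. The genotype difference under E2 at 24 h had 5 to 12 (5 without KO E2 24 h replicate 2, 6 without WT vehicle replicate 1 or KO vehicle replicate 3, 7 without KO vehicle replicate 2 or WT E2 24 h replicate 3). The IGF1 times in WT had 4 to 7, E2 against IGF1 had 4 to 5 at 24 h in WT, and in KO 0 to 6 at 2 h and 2 to 5 at 24 h. Signals near the floor limit what could be seen for Itga7, Itga10, Itga11, Itgal, Itgae, Lamb3 and Itgb3 in KO.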
